A study of Homo sapiens with 2 samples.

Results

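The respiratory complexes II to V were represented by 263 sgRNAs of 68 genes, out of 74336 sgRNAs of 19112 genes listed for a genome-scale CRISPR/Cas9 knockout screen. Members were chosen by gene symbol alone: symbols that begin with SDHA, SDHB, SDHC, SDHD, UQCR or ATP5, symbols in which COX is followed by a digit, and CYC1, CYCS, HCCS, SCO1, SCO2, SURF1 and BCS1L. Of these genes 60 had 4 listed sgRNAs, 7 had 3 and 1 (ATP5E) had 2. The question of the screen was which gene losses leave Ewing sarcoma cells with less EWSR1::FLI1, the fusion protein that drives this tumour. It used a reporter clone of A673, an Ewing sarcoma cell line, in which tdTomato is fused to the endogenous EWSR1::FLI1 gene and which also expresses EGFP as a control fluorophore and Cas9. The cells carried the Brunello library, were kept in puromycin for 12 days and then without it for 3 days. The libraries compared are 1 from the unsorted population, with 10483144 reads, and 1 from cells sorted for low tdTomato and high EGFP and then expanded, with 1455322 reads. Both populations derive from the same single clone, and neither has a replicate.

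An sgRNA with the same share of both libraries would have 0.139 sorted reads for each unsorted read, since the unsorted library was 7.20 times as deep. Each sgRNA was compared by its odds ratio, which at these counts is close to its share of the sorted library divided by its share of the unsorted one. An sgRNA counted as enriched where this ratio was 2 or more, and as depleted where it was 0.5 or less, provided that the p from Fisher's exact test (two-sided), adjusted by the Benjamini-Hochberg method across all 74336 sgRNAs, was under 0.05. With 1 library for each population the test compares those libraries and not the conditions. The intervals are exact 95% intervals and, like the test, cover counting error only, because PCR reads without molecular identifiers are not independent molecules.

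The mitochondrial respiratory chain passes electrons from NADH and succinate to oxygen and pumps protons as it does so. Complex II (succinate dehydrogenase) takes electrons from succinate in the citric acid cycle, complex III passes them from ubiquinol to cytochrome c, and complex IV (cytochrome c oxidase) passes them on to oxygen. Complex V (ATP synthase) uses the proton gradient to make ATP. Many of these complexes need dedicated assembly factors that insert heme, copper or iron-sulfur centres, and some complex IV subunits have isoforms restricted to heart, skeletal muscle, lung or testis.

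The sgRNA sequences are shown 5′ to 3′ as the deposited table lists them. The table names no genome build, so the sites were not placed on the genome. The first set is SDHD, the member gene with the most enriched sgRNAs, and the last of its 4 lines is the sgRNA with no sorted read.
SDHD with 75 sorted reads: agttcgaagcaacagagctg
SDHD with 42 sorted reads: atggagagaacatacaatgg
SDHD with 43 sorted reads: gaatagtccatcgcagagca
SDHD with 0 sorted reads: cgacctatcccagaatggtg
The second set holds the 5 sgRNAs with the largest odds ratios among members with at least 30 unsorted reads.
SDHA: gcccatcacctcgaccacgg
ATP5J2-PTCD1: ccccaggaaatcatccacaa
SDHC: tacctgtagatagtaatgtg
ATP5E: ttgcacagatctgggagtat
COX20: cggtgagcccgaggagagga
The third set is COX4I1, the common isoform of a complex IV subunit, of which no sgRNA had a sorted read.
COX4I1 with 154 unsorted reads: gagtggaagacggttgtggg
COX4I1 with 83 unsorted reads: atgagctcgtacacacacag
COX4I1 with 70 unsorted reads: gaacttaatgcgatacactg
COX4I1 with 52 unsorted reads: cacgccgatccatataagct
The fourth set holds the 6 pairs of sgRNAs to the same member gene that share at least 10 bases of target. In each pair the sgRNAs lie on opposite strands, and capitals mark the shared bases, which are the reverse complement of each other.
COX14, 101 sorted reads: TGCTTCTCACTGTGTATggg
COX14, 0 sorted reads: ATACACAGTGAGAAGCAtca
COX17, 0 sorted reads: GTCTCCGGGCAAGCGcagca
COX17, 65 sorted reads: CGCTTGCCCGGAGACcaaga
COX20, 61 sorted reads: CGGTGAGCCCGAGGAgagga
COX20, 0 sorted reads: TCCTCGGGCTCACCGggctc
COX7C, 57 sorted reads: ccgTAGGAGCCACTATGAGG
COX7C, 0 sorted reads: cctCCTCATAGTGGCTCCTA
COX8A, 36 sorted reads: AACGAATGGATCTTGgcgcg
COX8A, 0 sorted reads: CAAGATCCATTCGTTgccgc
COX6B1, 0 sorted reads: CGGTCATTGCCTTctgacag
COX6B1, 0 sorted reads: AAGGCAATGACCGctaaagg

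Over all the complexes, 52 of the 263 sgRNAs were enriched in the sorted library (19.8%), beside 20.8% of all sgRNAs, and 135 were depleted (51.3%), beside 51.7%. Both shares lie near the background, so neither is a result about the respiratory genes. No sorted read was found for 155 member sgRNAs (58.9%), where the background was 57.6%. Of these, 124 were called depleted and 31 had too few unsorted reads for a call, since a count of 0 was called only from 31 unsorted reads upward. The other 11 depleted sgRNAs had sorted reads. Under a negative binomial test that adds the spread of olfactory receptor sgRNAs, 15 member sgRNAs were enriched (5.70%, beside 3.48% of all sgRNAs), a difference that was not tested. Most of these 15 had under 30 unsorted reads, down to 4 for ATP5S. The negative binomial test takes the unsorted count as exact, so passing it does not make a call on so few reads firm. No depleted call, of members or of any other sgRNA, passed that test. With its dispersion of 1.38, a sorted count of 0 could not pass even at 1342 unsorted reads, the most of any sgRNA at 0. The test therefore cannot decide on depletion at such counts, which applies to every depleted sgRNA named from here on.

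By gene, 9 of 68 had at least 2 enriched sgRNAs (13.2%, background 18.8%), and they were SDHD, UQCRC2, CYCS, COX7B, COX18, COX19, SCO2, ATP5D and ATP5J2-PTCD1. SDHD alone had 3, and no member gene had all its sgRNAs enriched. In another 9 genes (13.2%, background 14.6%) every listed sgRNA was at 0 sorted reads. These were COX4I1, COX6B1, COX7B2, SURF1, ATP5B, ATP5H, ATP5I, ATP5J and ATP5L2. The most common outcome was a mixed one, because 40 genes (58.8%, background 55.2%) had an enriched sgRNA and also one with no sorted read. Among the 60 genes with 4 sgRNAs, 6 had sorted reads for none of them (10.0%), 21 for 1 (35.0%), 22 for 2 (36.7%) and 11 for 3 (18.3%). Over the 17233 such genes in the library these shares were 12.5%, 30.7%, 33.3% and 18.8%. No member gene had sorted reads for all 4, beside 4.66% in the library, a difference that was not tested.

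Among the members, the median sorted count of the recovered sgRNAs was similar across ranges of unsorted count. Member sgRNAs with under 30, 30 to 99, 100 to 299 and 300 or more unsorted reads had median sorted counts, where any were present, of 40, 42, 36 and 40. These medians rest on 11, 29, 55 and 13 recovered sgRNAs. Over all sgRNAs the medians were 29, 37, 42 and 47 and thus rose with the unsorted count, a difference from the members that was not tested. The enriched share of the members over the same ranges was 25.0% of 40, 26.4% of 87, 17.3% of 110 and 0% of 26 sgRNAs. The share with no sorted read was 72.5%, 66.7%, 50.0% and 50.0%. Over all sgRNAs the enriched share was 17.5%, 26.7%, 20.7% and 6.77%, and the share with no sorted read was 76.9%, 65.5%, 50.0% and 35.6%. Enriched member sgRNAs thus had fewer unsorted reads (median 77, range 4 to 296) than those with sorted reads that were not enriched (median 201, range 20 to 665), and the odds ratio contains the unsorted count, so this is a description. The median GC content was 50% for enriched sgRNAs and for those at 0, and 55% for those with sorted reads but no enrichment. The very largest odds ratios fell on the smallest unsorted counts. An sgRNA to ATP5S (now DMAC2L, a factor of ATP synthase) had an odds ratio of 59.4 from 4 unsorted and 33 sorted reads. One to UQCRQ, a complex III subunit, had one of 51.3 from 8 and 57 reads. Both genes were picked out here after their values were seen, and the other 3 sgRNAs of each were not enriched.

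Complex II had 7 of 27 sgRNAs enriched (25.9%, beside 20.8% in the library) and 11 depleted (40.7%, beside 51.7%), differences that were not tested, and none of its 7 genes was at 0 sorted reads throughout. SDHD, a membrane anchor subunit that helps to bind ubiquinone, carried 3 of these 7. Its 4 sgRNAs had 123, 36, 134 and 9 unsorted reads and 75, 42, 43 and 0 sorted reads. The sgRNA at 0 was thus also the rarest before sorting, and its count allows no call. The odds ratios of the enriched sgRNAs were 4.39 (3.25 to 5.90), 8.40 (5.26 to 13.5) and 2.31 (1.60 to 3.28), with adjusted p = 2.82e-19, 8.38e-18 and 1.82e-05 by Fisher's exact test. In sum SDHD had 302 unsorted and 160 sorted reads, a share 3.82 times that in the unsorted library. This sum hides the spread between its sgRNAs, whose odds ratios ran from 0 to 8.40. All 3 enriched calls were lost under the negative binomial test.

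The other subunits of complex II had at most 1 enriched sgRNA each. SDHA, the flavoprotein that oxidizes succinate, had 27, 33, 416 and 27 unsorted reads and 0, 73, 35 and 0 sorted reads. One of its sgRNAs therefore had the largest odds ratio among members with at least 30 unsorted reads, 15.9 (10.4 to 24.8), on only 33 such reads. Its most abundant sgRNA had an odds ratio of 0.606 (0.416 to 0.857). SDHC, the other membrane anchor, had 22, 132, 42 and 47 unsorted reads and 0, 0, 0 and 81 sorted reads. Its single recovered sgRNA had an odds ratio of 12.4 (8.56 to 18.2), and of the 3 at 0 those with 132 and 42 unsorted reads were depleted. SDHB, the iron-sulfur subunit, had 271, 149, 61 and 126 unsorted reads and 47, 0, 0 and 0 sorted reads. It had no enriched sgRNA, its recovered sgRNA had an odds ratio of 1.25 (0.896 to 1.71), and the 3 at 0 were depleted. Of the assembly factors, SDHAF2, which attaches the flavin to SDHA, and SDHAF3, which serves the iron-sulfur subunit, each had a single enriched sgRNA, at odds ratios of 6.52 and 5.87. Both of these calls were lost under the negative binomial test. SDHAF1, which also serves the iron-sulfur subunit, had 4 depleted sgRNAs out of 4, with 240, 204, 56 and 504 unsorted reads and 8, 0, 0 and 15 sorted reads.

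In complex III, 9 of 44 sgRNAs were enriched (20.5%, beside 20.8% in the library) and 21 were depleted (47.7%, beside 51.7%). Of its 11 genes 8 had both an enriched sgRNA and one at 0 (72.7%, beside 55.2%), and no difference was tested. UQCRC2, a core subunit, was the gene with 2 enriched sgRNAs. Its sgRNAs had 313, 268, 46 and 73 unsorted reads and 0, 106, 0 and 86 sorted reads. The recovered sgRNAs had odds ratios of 2.85 (2.25 to 3.58) and 8.49 (6.14 to 11.8), adjusted p = 4.82e-16 and 2.15e-35 by Fisher's exact test, and the others were depleted. Both enriched calls were lost under the negative binomial test. The sgRNA with the most unsorted reads was one of those absent after sorting.

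The partner core subunit UQCRC1 had 228, 531, 180 and 188 unsorted reads and 57, 45, 0 and 0 sorted reads. None was enriched, since the highest odds ratio was 1.80 (1.32 to 2.42), and the sgRNAs at 0 were both depleted. UQCRFS1, the Rieske iron-sulfur protein, had 133, 59, 80 and 8 unsorted reads and 0, 0, 54 and 0 sorted reads, with an odds ratio of 4.86 for the recovered sgRNA, a call that was lost under the negative binomial test. CYC1, cytochrome c1, had 162, 23, 9 and 20 unsorted reads and 0, 0, 0 and 46 sorted reads. Its enriched sgRNA had an odds ratio of 16.6 (9.61 to 29.6) on 20 unsorted reads. BCS1L, which inserts the Rieske protein, had a single enriched sgRNA (odds ratio 2.37, lost under the negative binomial test) and 3 at 0. UQCR10 and UQCRH, small subunits, and UQCRC1 were the complex III genes with no enriched sgRNA.

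Cytochrome c itself (CYCS), the electron carrier between complexes III and IV, had 22, 117, 336 and 49 unsorted reads and 34, 22, 0 and 42 sorted reads. The sgRNAs with the fewest unsorted reads were the enriched ones, with odds ratios of 11.1 (6.32 to 20.0) and 6.17 (3.99 to 9.52), while the one with the most unsorted reads had no sorted read and was depleted. With at least 30 unsorted reads required, or under the negative binomial test, CYCS had 1 enriched sgRNA. HCCS, the lyase that attaches heme to cytochrome c, had 340, 545, 489 and 200 unsorted reads, more than most members, and 58, 0, 0 and 11 sorted reads. None of its sgRNAs was enriched, and the 3 other than the first were depleted.

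Complex IV supplied 108 sgRNAs of 28 genes. Of these sgRNAs 19 were enriched (17.6%, beside 20.8% in the library) and 58 were depleted (53.7%, beside 51.7%). The 10 common subunits had 6 of 40 sgRNAs enriched (15.0%) and 24 depleted (60.0%), and 28 of these 40 had no sorted read (70.0%, beside 57.6%). None of these differences was tested. COX7B, a small subunit, was the common subunit with 2 enriched sgRNAs. Its sgRNAs had 11, 67, 256 and 296 unsorted reads and 0, 42, 0 and 120 sorted reads. The recovered sgRNAs had odds ratios of 4.52 (2.99 to 6.74) and 2.92 (2.34 to 3.62), with adjusted p = 1.11e-11 and 9.58e-19 by Fisher's exact test. A sorted count of 120 was the highest of any member, yet the sgRNA with 256 unsorted reads to the same gene was at 0. Neither enriched call passed the negative binomial test.

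COX4I1 and COX6B1 were the common subunits with no sorted read at all. COX4I1, which takes part in the regulation of the enzyme by ATP, had 154, 83, 70 and 52 unsorted reads, and its sgRNAs were all depleted. Summed over the gene, 359 unsorted reads gave an expectation of 49.8 sorted reads, so that its share was 16.6-fold lower when 0 is replaced by a floor of 3 reads. None of its depleted calls passed the negative binomial test, which no count of 0 could pass here. COX6B1, which links the monomers of the complex IV dimer, had 30, 112, 116 and 35 unsorted reads, and 3 of its 4 sgRNAs were depleted. Its 293 unsorted reads gave an expectation of 40.7 sorted reads. COX5A, a matrix-side subunit, came close to this pattern, with 336, 122, 201 and 93 unsorted reads and 0, 0, 0 and 30 sorted reads, and the recovered sgRNA was enriched with an odds ratio of 2.32 (1.49 to 3.54). That call was lost with Bonferroni adjustment and under the negative binomial test.

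The 6 tissue-restricted isoforms had the highest unsorted counts of any group with over 8 sgRNAs (median 191) and 2 of 22 sgRNAs enriched (9.09%, beside 20.8% in the library). Their median lies in the range of 100 to 299 unsorted reads, where 20.7% of all sgRNAs were enriched, beside 6.77% from 300 reads upward. Of the 22 sgRNAs 15 were depleted (68.2%, beside 51.7%), and none of these differences was tested. The enriched sgRNAs belonged to COX4I2, the lung isoform, and COX6A2, a heart and muscle isoform, with odds ratios of 12.0 and 3.91. The COX4I2 call rested on 24 unsorted reads, and the COX6A2 call was lost under the negative binomial test. COX7B2, a testis isoform, had 246, 136 and 455 unsorted reads and no sorted read, 38.7-fold below expectation with the same floor of 3 reads. All 3 of its sgRNAs were depleted, on counts of 0 that could not pass the negative binomial test. The closest sgRNAs of COX7B2 and the common isoform COX7B, which differ at 4 bases, were both at 0, with 455 unsorted reads for COX7B2 and 256 for COX7B. Whether the unsorted counts of the isoforms have a part in their lower enriched share was not tested.

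The assembly factors of complex IV held 11 enriched sgRNAs out of 46 (23.9%, beside 20.8% in the library) and 19 depleted ones (41.3%, beside 51.7%). Of the 12 genes 3 had 2 enriched sgRNAs (25.0%, beside 18.8% with at least 2), and no difference was tested. COX18, which inserts a membrane segment of the mitochondrially encoded subunit COX2, had 3 listed sgRNAs with 69, 121 and 200 unsorted reads and 46, 0 and 67 sorted reads. Its odds ratios were 4.80 (3.23 to 7.08) and 2.41 (1.80 to 3.20), and the sgRNA at 0 was depleted. COX19, a copper-related factor of the intermembrane space, had 253, 73, 87 and 81 unsorted reads and 83, 0, 0 and 69 sorted reads. Its recovered sgRNAs had odds ratios of 2.36 (1.82 to 3.04) and 6.14 (4.38 to 8.57), and both of the others were depleted. SCO2, a copper carrier for COX2, had 58, 158, 120 and 20 unsorted reads and 19, 0, 34 and 1 sorted reads. Its enriched sgRNAs had odds ratios of 2.36 (1.33 to 4.02) and 2.04 (1.35 to 3.01), the second of which was the smallest of any enriched member. The calls for SCO2 were lost with Bonferroni adjustment, and those for all 3 genes under the negative binomial test.

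COX10 and COX15, the enzymes that make heme A for complex IV, had no enriched sgRNA. COX10 had 151, 511, 207 and 322 unsorted reads and 0, 48, 21 and 40 sorted reads, and its recovered sgRNAs had odds ratios between 0.677 and 0.895. COX15 had 137, 120 and 146 unsorted reads and 31, 33 and 0 sorted reads. Its recovered sgRNAs had odds ratios of 1.63 (1.07 to 2.42) and 1.98 (1.31 to 2.93), so one of them lay just under the threshold of 2 and was called with scaling on olfactory receptor sgRNAs. SURF1, a factor for heme insertion that is mutated in Leigh syndrome, had 60, 22, 84 and 81 unsorted reads and no sorted read, 11.4-fold below expectation with the floor of 3 reads. COX20, a chaperone of COX2, had 46, 14, 130 and 88 unsorted reads and 61, 0, 18 and 0 sorted reads, and its enriched sgRNA had an odds ratio of 9.55 (6.41 to 14.3). COX7A2L, which joins complexes III and IV into supercomplexes, had a single enriched sgRNA (odds ratio 2.54) and 3 depleted ones. Its enriched call was lost under the negative binomial test.

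Complex V supplied 60 sgRNAs of 16 genes, with 11 sgRNAs enriched (18.3%, beside 20.8% in the library) and 35 depleted (58.3%, beside 51.7%). No sorted read was found for 42 (70.0%), and 5 of the 16 genes were at 0 throughout (31.25%), beside 57.6% of sgRNAs and 14.6% of genes in the library. Its sgRNAs also had fewer unsorted reads, with a median of 75 against 103 in the library, and the part of this in the absence of sorted reads was not tested. The enriched sgRNAs were 5 of 17 for the catalytic F1 part (29.4%) and 6 of 43 for the stalk and membrane part (13.95%), a difference that was not tested.

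In the F1 part, ATP5D (now ATP5F1D, the delta subunit of the central stalk) had 68, 81, 31 and 21 unsorted reads and 0, 70, 0 and 41 sorted reads. Its enriched sgRNAs had odds ratios of 6.22 (4.46 to 8.68) and 14.1 (8.12 to 25.0), with adjusted p = 6.47e-24 and 5.77e-22 by Fisher's exact test, and both of the others were depleted. With at least 30 unsorted reads required, or under the negative binomial test, ATP5D had 1 enriched sgRNA. ATP5E (now ATP5F1E, the epsilon subunit) had 2 listed sgRNAs, with 76 and 228 unsorted reads and 113 and 20 sorted reads. One was thus enriched with an odds ratio of 10.7 (7.94 to 14.5), and the other had an odds ratio of 0.632 (0.379 to 0.999). The catalytic beta subunit ATP5B (now ATP5F1B) had 130, 12 and 172 unsorted reads and no sorted read, 14.5-fold below expectation with the floor of 3 reads. The alpha subunit ATP5A1 (now ATP5F1A), which forms the catalytic ring with it, had 110, 174, 208 and 23 unsorted reads and 0, 23, 0 and 32 sorted reads. Its rarest sgRNA was the enriched one, with an odds ratio of 10.0 (5.68 to 17.9). ATP5C1 (now ATP5F1C, the gamma subunit) had a single enriched sgRNA (odds ratio 2.48), a call that was lost under the negative binomial test.

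In the stalk and membrane part no gene had over 1 enriched sgRNA. ATP5O (now ATP5PO), which joins the peripheral stalk to F1, had 37, 186, 304 and 86 unsorted reads and 0, 56, 0 and 0 sorted reads, and its recovered sgRNA had an odds ratio of 2.17 (1.58 to 2.94). This call was lost with Bonferroni adjustment and under the negative binomial test. ATP5G1 (now ATP5MC1), which encodes the c subunit of the rotor, had 1 enriched sgRNA with 76 unsorted and 98 sorted reads. ATP5J (now ATP5PF), a peripheral stalk subunit, had 73, 44, 81 and 64 unsorted reads and no sorted read, and all 4 sgRNAs were depleted. ATP5I (now ATP5ME), a membrane subunit at the dimer interface, had 146, 1, 163 and 76 unsorted reads and none after sorting. ATP5H (now ATP5PD), of the peripheral stalk, had 15, 10, 74 and 21 unsorted reads, so that its absence after sorting rests on 120 unsorted reads in all. ATP5L2 (now ATP5MGL), a near copy of the membrane subunit gene ATP5L, had 65, 58 and 45 unsorted reads and no sorted read. With the floor of 3 reads these 4 genes were 12.1-fold, 17.86-fold, 5.55-fold and 7.77-fold below expectation, in the order given.

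ATP5J2-PTCD1, a read-through of the membrane subunit gene ATP5J2 and the neighbouring PTCD1, had the largest summed enrichment of the genes with at least 2 enriched sgRNAs. Its sgRNAs had 23, 18, 55 and 39 unsorted reads and 42, 0, 112 and 7 sorted reads. The odds ratios of the enriched sgRNAs were 13.1 (7.73 to 22.9) and 14.7 (10.5 to 20.6), with adjusted p = 6.68e-22 and 3.28e-59 by Fisher's exact test. Over the gene the summed sorted share was 8.59 times the unsorted one, although its sgRNAs that were not enriched had odds ratios of 0 and 1.29. It was also the only member gene with 2 enriched sgRNAs under the negative binomial test, although just 1 of them had at least 30 unsorted reads. ATP5J2 alone had 1 enriched sgRNA, with 6 unsorted and 8 sorted reads, a call that was lost under the negative binomial test. Its other sgRNAs had 56, 25 and 252 unsorted reads and 0, 0 and 27 sorted reads.

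The overlapping sgRNAs allow outcomes to be set side by side at nearly the same target. In 5 of the 6 pairs printed above one sgRNA had sorted reads and its partner had none. The COX14 pair shares 17 bases and had 227 and 271 unsorted reads, and 101 and 0 sorted reads. The COX7C pair also shares 17 bases, with 114 and 238 unsorted reads and 57 and 0 sorted reads. In both, the sgRNA with more unsorted reads was the one that was absent after sorting. The COX17 pair had 111 and 78 unsorted and 0 and 65 sorted reads, the COX20 pair 46 and 88 unsorted and 61 and 0 sorted reads, and the COX8A pair, in the order 0 and 36 sorted reads, 102 and 253 unsorted reads. For COX6B1, where 13 bases are shared, both were at 0 from 30 and 112 unsorted reads. Over the library 42.8% of 339 such pairs had 1 sgRNA at 0 and 39.5% had both. Of all 382 same-gene pairs among the members, overlapping or not, 190 (49.7%) were split in this way, beside 46.8% of all same-gene pairs, and 11 had both sgRNAs enriched (2.88%, beside 4.39%).

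By their summed reads, the members held 0.342% of unsorted and 0.320% of sorted reads, a ratio of 0.934. The ratio was 1.43 for complex II, 0.885 for complex III, 0.849 for complex IV and 0.921 for complex V. On the log2 scale, with 0.5 reads added to each count, the median of sorted over unsorted share was -2.92 over the members and -2.82 over all sgRNAs. Complex I, the other respiratory complex, with its assembly factors included, had 34 of 182 sgRNAs enriched (18.7%), 57.1% at 0 and a median of -2.96. Mitochondrial ribosomal proteins, which make the chain's mitochondrially encoded subunits, had 52 of 302 enriched (17.2%), 63.9% at 0 and a median of -3.56. Olfactory receptors, which are not thought to act in such cells, had 253 of 1457 enriched (17.4%), 57.8% at 0 and a median of -2.28. The enriched share of the members lay between those of these 3 lists and that of the whole library. No test of these differences was made.

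Genes of the same pathway outside the symbol rule also had shares close to those of the library. Over 42 genes 30 of 165 sgRNAs were enriched (18.2%, beside 20.8% in the library) and 92 were depleted (55.8%, beside 51.7%). Of these genes 6 had at least 2 enriched sgRNAs (14.3%, beside 18.8%), each with 2. They were ATPAF2, an assembly factor of F1, COA1 and LYRM7, assembly factors of complexes IV and III, ADCK3 (now COQ8A) and COQ3 of coenzyme Q synthesis, and UROS of heme synthesis. No sorted read was found for 8 genes (19.0%, beside 14.6% in the library), which were UQCC2 and UQCC3 of complex III assembly, COA3, COA7, PET117 and LRPPRC of complex IV biogenesis, NDUFA4 (now COXFA4), a complex IV subunit, and COQ2. By list, the enriched sgRNAs were 3 of 19 for complex III assembly factors (15.8%), 6 of 50 for further complex IV genes (12.0%) and 7 of 28 for further complex V genes (25.0%). They were 5 of 32 for heme synthesis (15.6%) and 9 of 36 for coenzyme Q synthesis (25.0%), beside 20.8% in the library. The depleted sgRNAs were 12, 30, 13, 22 and 15 in the same order (63.2%, 60.0%, 46.4%, 68.75% and 41.7%), beside 51.7%. None of these differences was tested. ALAS1, the first enzyme of heme synthesis, had 1011 unsorted reads and 1 sorted read over 4 sgRNAs, all of which were depleted.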

How the data were processed

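The authors sequenced the sgRNA cassettes of genomic DNA from both populations on a MiSeq, matched them to the Brunello sequences by means of Bowtie 1.2.2, and deposited raw counts of reads for each sgRNA together with the total of each library. Cells were transduced at a multiplicity of infection of 0.3, and cassettes were amplified in 24 reactions of 20 cycles and then 15 cycles. The table also holds the authors' odds ratios and p-values, which were not used. Of 74339 entries 3 repeats were dropped. Members, roles and lists were chosen with earlier results of these data known, and 68 of 68 member genes matched RefSeq by accession, which gave the current symbols. SDHAF4, COQ4 and COQ8A are not listed under these symbols.

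The exact test of Fisher was applied to the deposited counts in Python 3.11.15, numpy 2.4.6, pandas 2.3.3 and scipy 1.17.1, and tested on simulated data. No model of replicate spread could be fitted with 1 library per population. Intervals are Clopper-Pearson 95% intervals of the sorted fraction of an sgRNA's reads, expressed as share ratios. Folds below expectation for a count of 0 replace it by 3 reads, for a gene over its summed sgRNAs, and are not confidence limits. Log2 ratios used a pseudocount of 0.5. Values of each sgRNA are given for genes with at least 2 enriched sgRNAs, genes at 0 throughout with at least 100 unsorted reads in all, 15 genes named by role (SDHA, SDHB, SDHC, SDHD, UQCRC1, UQCRFS1, CYC1, CYCS, COX4I1, COX5A, COX10, COX15, ATP5A1, ATP5B and ATP5O) and the genes of the 5 largest odds ratios from at least 30 unsorted reads. Other members named outside this rule were chosen after their values were seen.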

Additional observations from a re-analysis of the deposited data

How the results depend on the processing

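The numbers of enriched sgRNAs, depleted sgRNAs and genes with at least 2 enriched sgRNAs were recomputed with any odds ratio above 1 (below 1 for depletion), a minimum of 30 unsorted reads, olfactory receptor sgRNAs as the scale, Bonferroni adjustment, a negative binomial test and the unsorted library thinned to the sorted depth. The negative binomial test, whose dispersion of 1.38 came from olfactory receptor sgRNAs, left 15 of the 52 enriched sgRNAs (5.70% of the members), 0 of the 135 depleted ones and 1 of the 9 genes, and it called 3.48% of all sgRNAs enriched and 0% depleted. Most of the 15 had under 30 unsorted reads, and this test leaves out the counting error of the unsorted reads. With that dispersion no sorted count of 0 could be called depleted, so the negative binomial test cannot decide on depletion here. Bonferroni adjustment left 61 depleted sgRNAs. Any odds ratio above 1 gave 15 genes. The other counts stayed within 1.5 times of the first values, between 41 and 64 enriched sgRNAs, 123 and 142 depleted sgRNAs and 6 and 11 genes. With at least 30 unsorted reads 126 member sgRNAs were at 0. The median log2 ratio of -2.92 became -3.69 with at least 30 unsorted reads, -0.44 with 5 reads added and -2.87 with scaling on olfactory receptor sgRNAs. Of 155 values for the named genes 133 stayed within 1.5 times of the first count of enriched sgRNAs, 19 were lower and 3 higher. Many of the 133 could not change, because the 9 genes at 0 sorted reads throughout have no enriched sgRNA under any setting. The 133 is therefore no measure of how stable the enriched calls are. No paired analysis was possible because each population has 1 library. The depth of the sorted library limits calls on a count of 0 to sgRNAs with at least 31 unsorted reads. Abundance of the sgRNAs before selection was not analysed here, so loss during culture cannot be told apart from unequal representation in the library.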
